A study of Mus musculus with 6 samples.

Results

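The 200 most abundant long noncoding RNAs (lncRNAs) of the mouse testis were selected on their level: among the 12568 genes that the deposited table types as lncRNA, Neat1 and Malat1 left aside, they had the highest mean TPM over 6 libraries. TPM is a read count scaled to transcript length and to the same sum in every library, so levels of different genes can be set side by side. The table held 45777 genes in all. The members' levels are therefore given as a description, and the choice did not use the difference between the diets. The libraries were made from total RNA of wild-type (WT) mouse testis after ribosomal RNA removal: 3 from mice given the ethanol-containing LDC liquid diet for 16 weeks, and 3 from mice given the control LDC liquid diet for the same time. Both diets were given at 10 ml per mouse and day, after 5 days on the control liquid diet. The labels give no age or strain and do not say whether each library is from its own animal, so each p-value measures the spread between these 6 samples alone, and that spread may be technical.

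LncRNAs are transcripts longer than most small RNAs that are not annotated to encode a protein. The testis transcribes more of them than most tissues, mainly in meiotic spermatocytes and in round spermatids, where chromatin is widely open, and for most of them no function is known. Many of those shown here carry only a RIKEN clone name (ending in Rik) or a predicted-gene name (Gm and a number). MYBL1 (A-MYB) is a transcription factor of pachytene spermatocytes that starts the meiotic expression of many mouse genes, noncoding ones included.

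The 300-base windows around the annotated starts of the 6 most abundant members are shown as the sequence from which these transcripts begin. They are RefSeq sequences of GRCm38.p6, run from 250 bases before the start to 50 bases after it, and are written 5′ to 3′ on the gene's strand. Capitals mark a MYB site, which is CAACTG or a variant of it, namely CAACGG or the version TAACTG or else the version TAACGG, read on either strand. The first of the 2 windows of 1700027A15Rik (chr1:73015786-73016085) and the windows of Gm15517 (chr7:44261191-44261490) and Gm9999 (chr7:46976382-46976681) lie on the plus strand and hold no such site. Those of Rbakdn (chr5:143165702-143166001), 1700008K24Rik (chr17:49113484-49113783) and 1700028J19Rik (chr7:44236073-44236372) lie on the minus strand, with 1, 3 and 2 sites.
1700027A15Rik: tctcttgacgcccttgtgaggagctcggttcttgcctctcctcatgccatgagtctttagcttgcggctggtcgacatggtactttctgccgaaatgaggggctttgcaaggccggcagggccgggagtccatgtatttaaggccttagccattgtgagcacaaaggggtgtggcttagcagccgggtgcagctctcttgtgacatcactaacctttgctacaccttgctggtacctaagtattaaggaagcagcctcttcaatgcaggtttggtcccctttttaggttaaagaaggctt
Rbakdn: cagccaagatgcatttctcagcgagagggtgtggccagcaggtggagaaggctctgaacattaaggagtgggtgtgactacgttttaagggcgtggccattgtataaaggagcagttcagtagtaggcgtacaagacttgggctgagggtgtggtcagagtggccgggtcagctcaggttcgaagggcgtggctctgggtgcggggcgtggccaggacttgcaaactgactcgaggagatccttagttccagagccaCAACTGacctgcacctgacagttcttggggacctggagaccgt
1700008K24Rik: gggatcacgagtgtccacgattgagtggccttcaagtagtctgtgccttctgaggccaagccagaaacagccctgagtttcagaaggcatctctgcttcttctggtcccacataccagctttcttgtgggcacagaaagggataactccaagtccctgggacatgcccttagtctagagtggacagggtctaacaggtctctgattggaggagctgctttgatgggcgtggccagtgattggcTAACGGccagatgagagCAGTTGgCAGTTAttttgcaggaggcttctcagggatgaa
Gm15517: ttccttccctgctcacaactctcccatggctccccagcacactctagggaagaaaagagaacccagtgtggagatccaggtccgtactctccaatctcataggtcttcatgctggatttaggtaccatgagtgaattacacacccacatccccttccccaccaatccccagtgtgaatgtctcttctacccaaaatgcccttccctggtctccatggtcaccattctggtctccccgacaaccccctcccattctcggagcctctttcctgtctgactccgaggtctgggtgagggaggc
Gm9999: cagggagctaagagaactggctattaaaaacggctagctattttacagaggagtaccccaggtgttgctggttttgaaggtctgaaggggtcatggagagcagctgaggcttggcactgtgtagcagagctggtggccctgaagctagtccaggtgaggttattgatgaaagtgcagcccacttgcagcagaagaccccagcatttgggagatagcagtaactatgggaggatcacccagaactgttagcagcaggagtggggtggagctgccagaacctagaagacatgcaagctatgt
1700028J19Rik: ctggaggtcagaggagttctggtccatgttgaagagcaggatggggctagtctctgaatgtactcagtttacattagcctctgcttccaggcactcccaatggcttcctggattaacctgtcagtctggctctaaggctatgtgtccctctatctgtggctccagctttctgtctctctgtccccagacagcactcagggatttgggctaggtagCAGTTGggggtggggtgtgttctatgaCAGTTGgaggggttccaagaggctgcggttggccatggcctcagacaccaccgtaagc

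In the 3 printed windows that hold a site, the capitals stand in the last part of the line, close to the start on either side. Of the 200 members, 173 matched a RefSeq window by gene identifier, with 190 windows between them, since some genes have several starts. A MYB site was present in 51.1% of these windows, against 31.8% of the 5503 windows of other lncRNAs tested, 26.3% of the 17179 windows of protein-coding genes tested and 28.3% of all 32851 windows of the table. The share depended on position. In the 50 bases before the start it was 18.4% among the members and 6.03% among all windows, and in the 50 bases after the start 17.4% and 5.48%. Between 250 and 200 bases before the start it was 5.26% and 5.42%. A match describes letters in a window and not a bound factor.

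**Figure D1:**
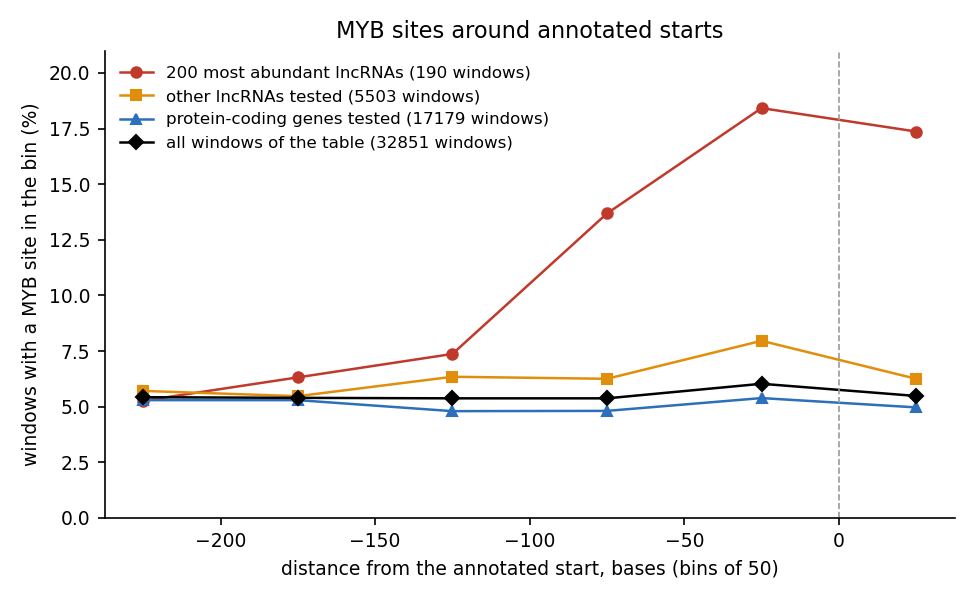
Percent of promoter windows with a MYB site in each 50-base bin, plotted against the distance from the annotated start in bases, for the 200 most abundant lncRNAs (red circles), other lncRNAs tested (orange squares), protein-coding genes tested (blue triangles) and all windows (black diamonds). The members' line leaves the others in the bins nearest the start, reaching 18.4% just before it, while all groups lie near 5% at the far end.

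Of the other motifs searched, the full cyclic AMP response element TGACGTCA, the site of CREM, which acts in spermatids, was found in 8 member windows (4.21%), against 1.38% of those of other lncRNAs, 1.79% of all windows and 2.58% of those of protein-coding genes tested. The shorter form of this element, TGACG, was in 23.7% of member windows and 17.5% of those of other lncRNAs. It was in 20.8% of all windows and 26.6% of those of protein-coding genes tested. CCAAT was in 41.6% of member windows and 37.4% of all, and TATAAA in 13.2% and 13.6%. GGGCGG, a GC box, was in 22.6% of member windows, against 20.1% of those of other lncRNAs and 53.8% of those of protein-coding genes tested. All were read on both strands. The GC content of the members' windows had a median of 49.7%, near the 49.0% of other lncRNAs and below the 58.7% of protein-coding genes, so a comparison with protein-coding windows is also one of base composition.

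Mean TPM of the members ran from 43.5 to 1239, with a median of 72.3. A steep head was followed by a long plateau: 1 member had a mean of at least 1000 TPM, 5 at least 500, 20 at least 200 and 55 at least 100. The 3 genes just inside the limit were Gm31818 at 44.5, 1700028D13Rik at 44.1 and Gm33847 at 43.5 TPM, and the 3 just outside were Gm35554 at 43.21, 4933433G15Rik at 43.18 and 1700030C14Rik at 43.07 TPM, so the limit falls on a continuous slope. Together the members made up 2.24 ± 0.032% of all TPM in ethanol libraries and 2.22 ± 0.012% in control libraries (SD, n = 3 each). They carried 42.3 ± 0.76% of the TPM of all lncRNA genes in ethanol libraries and 42.5 ± 0.73% in control libraries. The 10 highest members held 24.9 ± 0.48% of the members' TPM in ethanol libraries and 24.6 ± 0.17% in control libraries. In each of these shares the diets differed by less than the SD of the ethanol libraries.

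**Figure D2:**
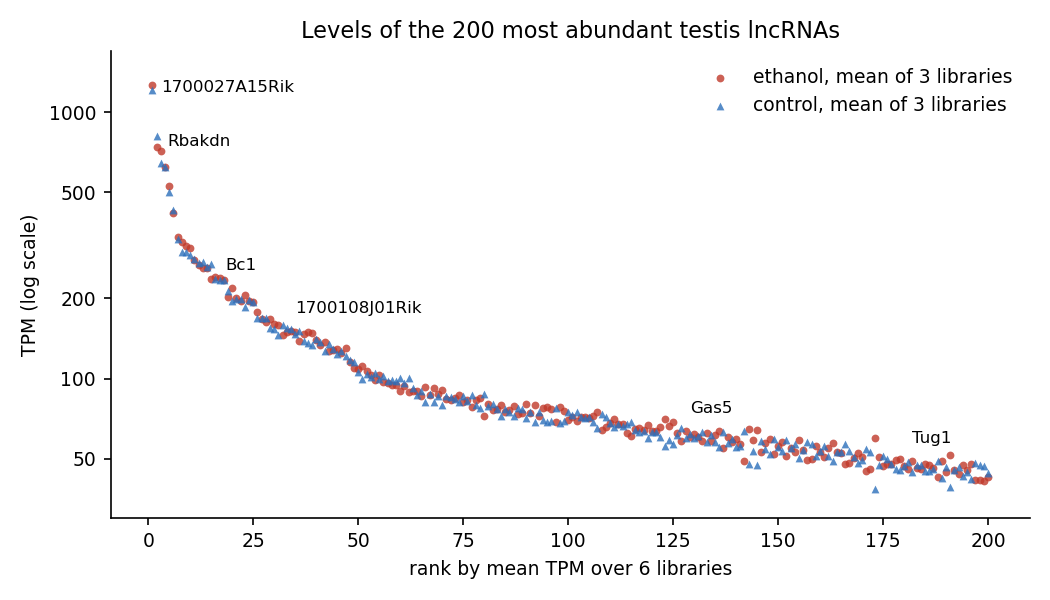
Mean TPM of each of the 200 lncRNAs on a log scale against its rank by mean TPM, with ethanol means as red circles and control means as blue triangles (3 libraries each). The level falls steeply over the first ranks from 1239 TPM and then slowly to 43.5 TPM, and the marks of the diets nearly coincide at most ranks.

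Set beside messenger RNAs, these lncRNAs were abundant transcripts. Only 43 protein-coding genes had a higher mean TPM than the first member, and 3543 of the table's 21949 protein-coding genes (16.1%) had a higher one than the last. All 200 passed the filter on low counts. The fewest reads of any member in any library were 176, and the median of their mean read counts was 1367. The coefficient of variation of TPM over the 6 libraries had a median of 7.15%, near the 6.32% of the 3500 protein-coding genes in the same TPM range, and 154 members were under 10%.

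The most abundant member, 1700027A15Rik, lies on chromosome 1 (chr1:73016036-73025508, plus strand) and starts 137 bases from the start of Tnp1 on the opposite strand. Tnp1 encodes transition protein 1, which replaces histones in condensing spermatids. 1700027A15Rik had 1363, 1263 and 1173 TPM in ethanol libraries 1, 2 and 3, against 1255, 1195 and 1186 TPM in control libraries 1, 2 and 3. The 2 sets of values overlap. Tnp1 itself was far higher, with 9428, 10407 and 10949 TPM in ethanol libraries, against 9127, 8910 and 9378 TPM in control libraries.

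Rbakdn, named for its place downstream of the zinc-finger gene Rbak, was second. It had 829, 695 and 695 TPM in ethanol libraries, against 793, 899 and 754 TPM in control libraries. Ethanol library 1 lies inside the control range on this scale. The third, 1700008K24Rik, had 707, 751 and 689 TPM in ethanol libraries, against 659, 670 and 609 TPM in control libraries, without overlap on this scale. Its CPM was 308, 344 and 334 in ethanol libraries, against 318, 301 and 305 in control libraries, and there the diets overlap. Gm15517 varied within both diets, with 569, 621 and 680 TPM in ethanol libraries, against 599, 542 and 726 TPM in control libraries. Each of its transcript's 31-base words also occurs in Gm28496 of the same annotation, so its level is uncertain. Gm9999 followed with 557, 530 and 504 TPM in ethanol libraries, against 495, 483 and 522 TPM in control libraries, again with overlap.

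The next 10 members had mean TPM between 253 and 424. 1700028J19Rik was the steadiest of them, with 419, 426 and 413 TPM in ethanol libraries, against 431, 443 and 412 TPM in control libraries. BB014433 (337 TPM), 1700016P04Rik (312 TPM), Wbscr25 (306 TPM) and 1700031M16Rik (300.2 TPM) came next in mean TPM, with Wbscr25 overlapping the tight-junction gene Cldn3 on the opposite strand. Gm31072 (279.5 TPM), Spanxn4 (269 TPM), Smkr-ps (267 TPM), LOC102631993 (261 TPM) and 1700086L19Rik (253 TPM) completed the first 15. Spanxn4 bears the name of a family of sperm proteins, and GENCODE M21 types it as a processed pseudogene. In 11 of these 15 the TPM of the diets overlapped, and in 13 the CPM did. Of all genes tested, 11.7% lay wholly above control in TPM and 4.41% wholly below. In CPM these shares were 9.76% and 9.01%.

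**Figure D3:**
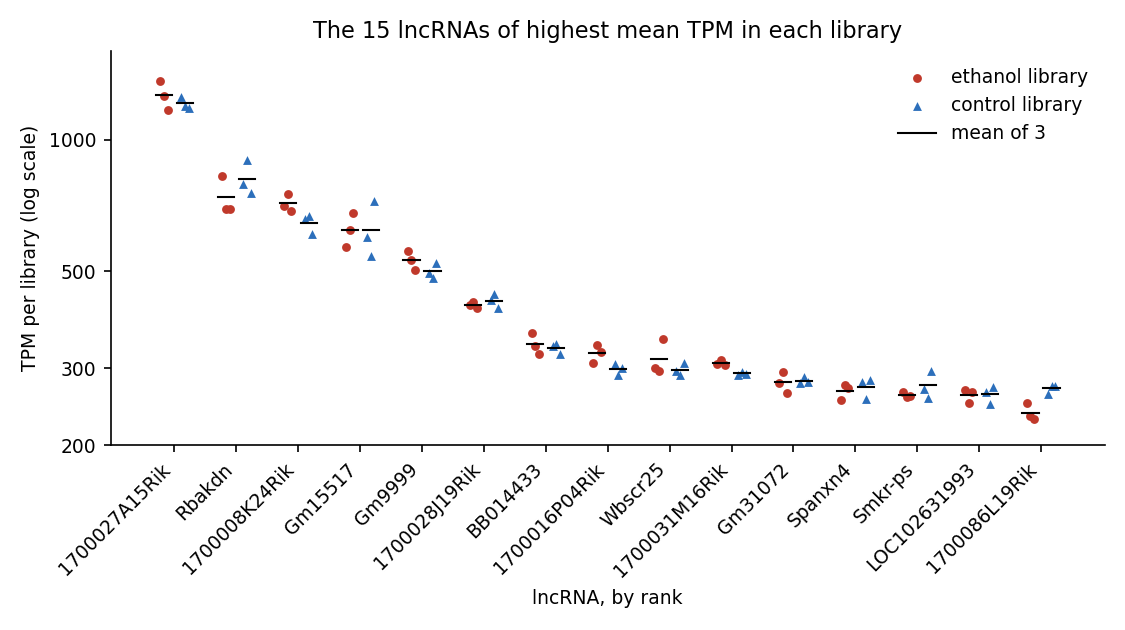
TPM in each library on a log scale for the 15 lncRNAs of highest mean TPM, ordered by rank, with ethanol libraries as red circles to the left, control libraries as blue triangles to the right and black bars at the mean of 3. 1700027A15Rik stands above 1000 TPM in all 6 libraries, and the circles and triangles of most genes share a range.

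Bc1, at rank 16, was the least steady member, with a coefficient of variation of 28.8%. It is a small cytoplasmic RNA best known from neurons, where it represses translation in dendrites, and its GENCODE transcript of 168 bases on chromosome 7 is printed here as that of the member that varied most.
Bc1: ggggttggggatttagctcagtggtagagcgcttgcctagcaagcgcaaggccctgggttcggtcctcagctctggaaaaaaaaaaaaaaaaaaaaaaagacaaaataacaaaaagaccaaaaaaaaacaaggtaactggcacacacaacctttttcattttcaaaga

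Its letters include a long run of A in the middle. Bc1 had 134, 298 and 288 TPM in ethanol libraries, against 265, 171 and 275 TPM in control libraries. Ethanol library 1 and control library 2 were the low ones, so the spread lies within each diet. The other members of largest variation were 1700018G05Rik (25.1%), Gm10847 (23.2%) and 1700125H03Rik (19.9%).

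By name, 113 members were RIKEN clones, 55 were predicted genes and 32 had other names. The members were 3.31% of the 6034 lncRNAs tested, a share beside which lists of well-known lncRNAs can be read. None of the 10 tested lncRNAs of imprinting and X inactivation was a member and none of the 7 tested microRNA hosts, while 2 of 18 hosts of small nucleolar RNAs were: Snhg3 at 68.1 and Gas5 at 60.2 mean TPM. Of 14 widely expressed lncRNAs 1 was a member, Tug1 at 46.4 mean TPM, whose loss makes male mice sterile. Of 124 tested genes named for the opposite strand of another gene 10 were members, from Kcnmb4os1 at 197 mean TPM to Stamos at 45.4 mean TPM. 1700108J01Rik, a testis lncRNA known from the mouse literature, was at rank 32 with 152 mean TPM.

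Positions came from RefSeq annotation of GRCm38.p6, the assembly of mm10, which placed 197 members with a strand. Of these 38 (19.3%) began within 1000 bases of a protein-coding gene's start on the opposite strand (head to head), against 15.9% of 4855 other lncRNAs tested. Another 40 (20.3%) overlapped a protein-coding gene on the opposite strand, against 25.9%, and 118 (59.9%) were intergenic, against 53.3%. Chromosome 14 held the most members, 19 (9.5%), against 5.28% of other lncRNAs tested. Chromosome X held 4 and chromosome Y 2. Of the 38 head-to-head members 28 had a higher mean TPM than their partner, and 30 of the 40 antisense ones did. The members were chosen for a high TPM and their partners were not. These counts therefore follow in part from that choice and are no result about the pairs.

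The typing as noncoding was not shared by every annotation. RefSeq typed 6 of the 200 as protein coding. GENCODE M21 matched 177 members and typed 17 of them as protein coding, among them Gm15517, Gm9999, 1700028J19Rik and BB014433 of the 7 highest, and Pmis2, which is known in mouse for a sperm protein. It typed 83 as lincRNA and 47 as antisense. In the longest GENCODE transcript of each, the median length was 853 bases and the median number of exons 3, and 16 had a single exon. The longest open reading frame, counted from ATG, had a median of 69 codons, and 49 members had at least 100. BB014433 had 389 codons and 1700027A15Rik 84.

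Some members share transcript sequence with each other or with other genes, and the counting of shared reads is not given in the sources used here. Whether such genes are copies or overlapping gene models at the same place was not tested. Of the 177 matched members 13 shared more than 50% of the 31-base words of their longest transcript with 1 other gene, and 6 shared more than 90%. With all other genes together, 9 shared more than 90%. On chromosome Y, all words of 1700020D14Rik occur in Gm29089, and all of Gm29089 in another gene. 4930558F17Rik and Gm33847 shared all of theirs with each other. Their levels were 75.4 and 73.6 mean TPM for the Y pair, and 55.7 and 43.5 mean TPM for the other. Since the strand setting of the counting is not given either, values of the members that overlap a gene on the opposite strand are uncertain too.

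For the comparison of the diets, read counts were scaled to library size with TMM factors (CPM) and tested with edgeR over all 25073 genes that passed the filter. In such whole tissue, fewer cells of a type and less RNA per cell cannot be told apart. None of the 200 members passed an adjusted p of 0.05, and neither did any of the genes tested (0.0%). The lowest adjusted p of a member was 0.145. At an unadjusted p under 0.05, 6 members (3.0%) were higher with ethanol, against 7.45% of all genes tested, and 24 (12.0%) were lower, against 5.89%. The ethanol libraries lay wholly above the control libraries in 7 members (3.5%), against 9.76% of all genes tested, and wholly below in 30 (15%), against 9.01%. DESeq2 called 3 members at an adjusted p of 0.05 (1.5%), against 2.65% of the genes to which it gave an adjusted p, and limma-voom called 0. When ethanol library 1 was left out, 13 members were higher at an unadjusted p under 0.05, and when control library 3 was left out, 13 were lower. Non-overlap is easier to reach with a library less. Wholly above control lay 29 members when ethanol library 1 was left out and 15 when control library 3 was. Wholly below lay 70 when control library 2 was left out and 48 when ethanol library 2 or 3 was. For the runs with a library left out, the share over all genes tested is not given here. Their counts are therefore no result about the members.

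Differences were small throughout. The median log2 fold change, ethanol over control, was -0.05 over the members, with 71 above 0, and 0.0065 over all genes tested and 0.0037 over the 5834 other lncRNAs tested. It was within 0.2 of 0 in 171 of the 200, and the median standard error was 0.09 on the log2 scale. Single libraries moved this median. Left-out control library 2 gave -0.09 and left-out ethanol library 3 gave -0.08, while it was -0.01 when control library 3 was left out and -0.02 when ethanol library 1 was. The members' median log2 CPM, relative to the mean of the 6 libraries, was -0.09, -0.0043 and 0.03 in ethanol libraries 1, 2 and 3, against 0.04, -0.06 and 0.09 in control libraries 1, 2 and 3. The diets overlap in this measure.

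The balance of higher and lower members also depended on the scale. On log2(TPM + 1), tested with limma, 20 members were higher at an unadjusted p under 0.05 (background 7.42%) and 14 lower (background 2.86%), and the median was 0.0027, against 0.04 over all genes tested. Non-overlap in TPM was seen above control in 31 members (background 11.7%) and below in 13 (background 4.41%). In 35 members the sign was below 0 on counts and above 0 on TPM, and in none was it the reverse. The TPM of a member differed from its CPM by a factor that was nearly the same for most members of a library, with 89.6% of their values within 0.01 of the library's median on the log2 scale. Over the 20885 genes with at least 20 counts in each library, 64.1% of the values were as close. This factor, relative to the mean of 6, was 0.11, 0.03 and -0.05 in ethanol libraries 1, 2 and 3, against -0.04, 0.06 and -0.10 in control libraries 1, 2 and 3, on the log2 scale. Its ethanol mean stood 0.06 above its control mean.

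**Figure D4:**
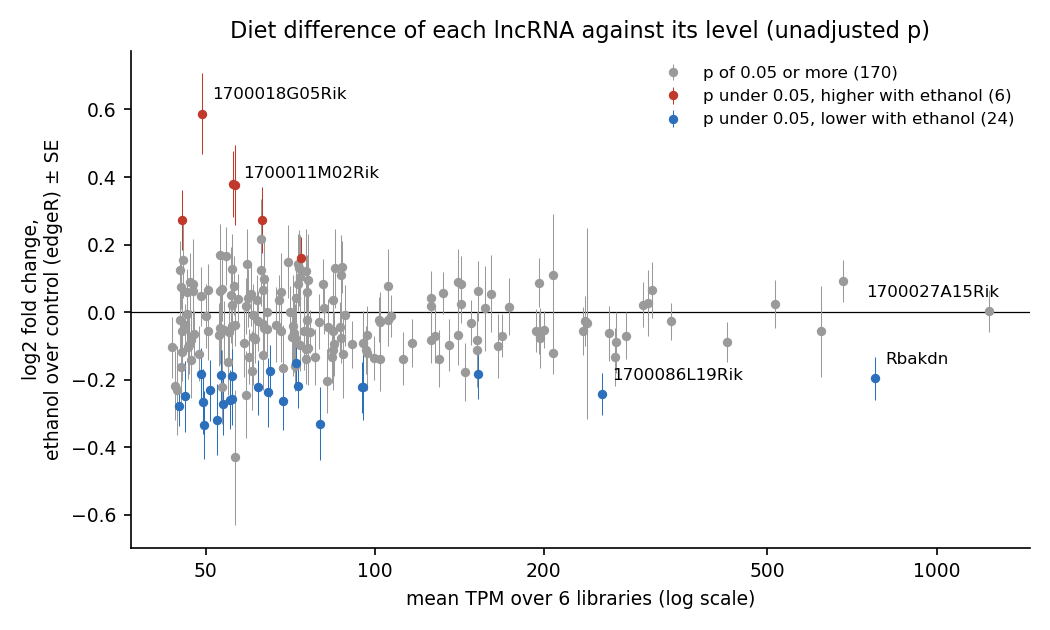
The log2 fold change of CPM (ethanol over control, edgeR, with its standard error) of each of the 200 lncRNAs against mean TPM on a log scale, coloured by unadjusted p and direction. The 6 red points lie above 0 and the 24 blue points below it, all of them between 0.15 and 0.59 in size, and most points at every level lie within 0.2 of 0.

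The smallest p of any member belonged to 1700018G05Rik on chromosome X (chrX:102928372-102929107), a 3-exon gene that GENCODE types as protein coding. It had 11.1, 12.0 and 13.7 CPM in ethanol libraries 1, 2 and 3, against 8.81, 8.36 and 7.31 CPM in control libraries 1, 2 and 3. All ethanol values lie above all control values, in CPM and in TPM. The log2 fold change was 0.59 with a standard error of 0.12 (edgeR adjusted p = 0.145), and DESeq2 gave an adjusted p of 0.00704. Over 17 alternatives its adjusted p ran between 0.00704 and 0.424.

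1700011M02Rik begins the same stretch of chromosome X (chrX:102908905-102909651), 18721 bases before 1700018G05Rik and on the same strand. GENCODE types 1700011M02Rik as protein coding too. It had 13.4, 12.9 and 15.01 CPM in ethanol libraries, against 10.7, 10.6 and 10.4 CPM in control libraries. The groups again do not overlap. Its log2 fold change was 0.38 ± 0.10 (SE, edgeR adjusted p = 0.163). It overlaps Dmrtc1a, a gene of the DMRT-like family, on the opposite strand, whose own fold change was 0.20 ± 0.08 on the log2 scale (SE, edgeR adjusted p = 0.346). Since reads of the overlap may be counted to either gene, their values cannot be taken as separate measurements. Of its transcript's 31-base words 37.7% occur in other genes. The other 4 members on chromosomes X and Y had log2 fold changes between -0.04 and 0.12, and none had an unadjusted p under 0.05.

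The next members that were higher with ethanol were 1700125H03Rik, antisense to Csgalnact1, and 4930500H12Rik. 1700125H03Rik had 15.8, 20.9 and 17.3 CPM in ethanol libraries, against 15.5, 12.8 and 13.4 CPM in control libraries. Ethanol library 1 and control library 1 nearly meet. Its log2 fold change was 0.38 ± 0.12 (SE, edgeR adjusted p = 0.222). Csgalnact1, an enzyme of chondroitin sulfate synthesis, was barely transcribed at 0.404 mean TPM. 4930500H12Rik had 36.1, 33.3 and 37.2 CPM in ethanol libraries, against 28.4, 26.8 and 33.0 CPM in control libraries, which is a log2 ratio of 0.27 ± 0.09 (SE, edgeR adjusted p = 0.234). 1700016K05Rik, antisense to the receptor phosphatase gene Ptprm, and LOC100125594 were the other 2 at an unadjusted p under 0.05, with log2 fold changes of 0.27 and 0.16. Saxo1os, 1700063D05Rik, Sox5os3 and 4930584F24Rik followed at an unadjusted edgeR p of 0.0747 or more, with log2 fold changes of 0.17, 0.17, 0.22 and 0.13. All 6 higher members at an unadjusted edgeR p under 0.05 were also free of overlap in TPM. Of the 24 lower members at that p, 22 were free of overlap in CPM and 11 in TPM. The p and the overlap come from the same libraries, so these counts follow in part from the choice by p.

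Among the members that were lower with ethanol, Gm41109 on chromosome 14 (chr14:24409976-24429854, minus strand) had the smallest p. It had 121, 121 and 110 CPM in ethanol libraries, against 145, 138 and 144 CPM in control libraries. The groups are well apart. Its log2 fold change was -0.28 ± 0.06 (SE, edgeR adjusted p = 0.153), and DESeq2 gave an adjusted p of 0.00424. Over 17 alternatives its adjusted p ran between 0.00424 and 0.445. In GENCODE it is an unclassified (TEC) gene with a single exon of 4659 bases.

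1700086L19Rik, at rank 15, had 104, 103 and 107 CPM in ethanol libraries, against 122, 118 and 132 CPM in control libraries. Here too the diets did not overlap. The log2 fold change was -0.24 ± 0.06 (SE, edgeR adjusted p = 0.162), and DESeq2 gave an adjusted p of 0.0202. Over 17 alternatives its adjusted p ran between 0.0202 and 0.441. Rbakdn, the second most abundant member, had 231, 205 and 216 CPM in ethanol libraries, against 245, 259 and 243 CPM in control libraries. On this scale, unlike in TPM, the ethanol values lie below all control values. Its log2 fold change was -0.20 ± 0.06 (SE, edgeR adjusted p = 0.228).

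Dgkeos starts 44 bases from Dgke, the gene of diacylglycerol kinase epsilon, and runs the other way. It had 26.7, 24.0 and 24.6 CPM in ethanol libraries, against 30.9, 27.4 and 32.1 CPM in control libraries, which is a log2 ratio of -0.26 ± 0.08 (SE, edgeR adjusted p = 0.226). Dgke, at 6.27 mean TPM against 68.8 for Dgkeos, had a difference of -0.04 ± 0.07 on the log2 scale (SE, edgeR adjusted p = 0.881). Gm32729 had 9.42, 9.88 and 9.67 CPM in ethanol libraries, against 13.1, 12.1 and 11.3 CPM in control libraries, which is a log2 ratio of -0.34 ± 0.10 (SE, edgeR adjusted p = 0.201). Ethanol values of Gm32729 are close together and below all control values. 1700012H19Rik had a log2 fold change of -0.33 and Gm16677 of -0.32. Gm16677 starts 14 bases from Entpd4, a nucleotide-hydrolysing enzyme of the Golgi with a log2 fold change of -0.09, and all of its 31-base words occur in Gm27174. Gm42020, Gm16159 and 1700095B10Rik, antisense to Trafd1, the growth factor receptor gene Fgfr1 and the myosin gene Myo18b, had log2 fold changes of -0.27, -0.26 and -0.22, and their partners -0.05, 0.09 and 0.08.

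**Figure D5:**
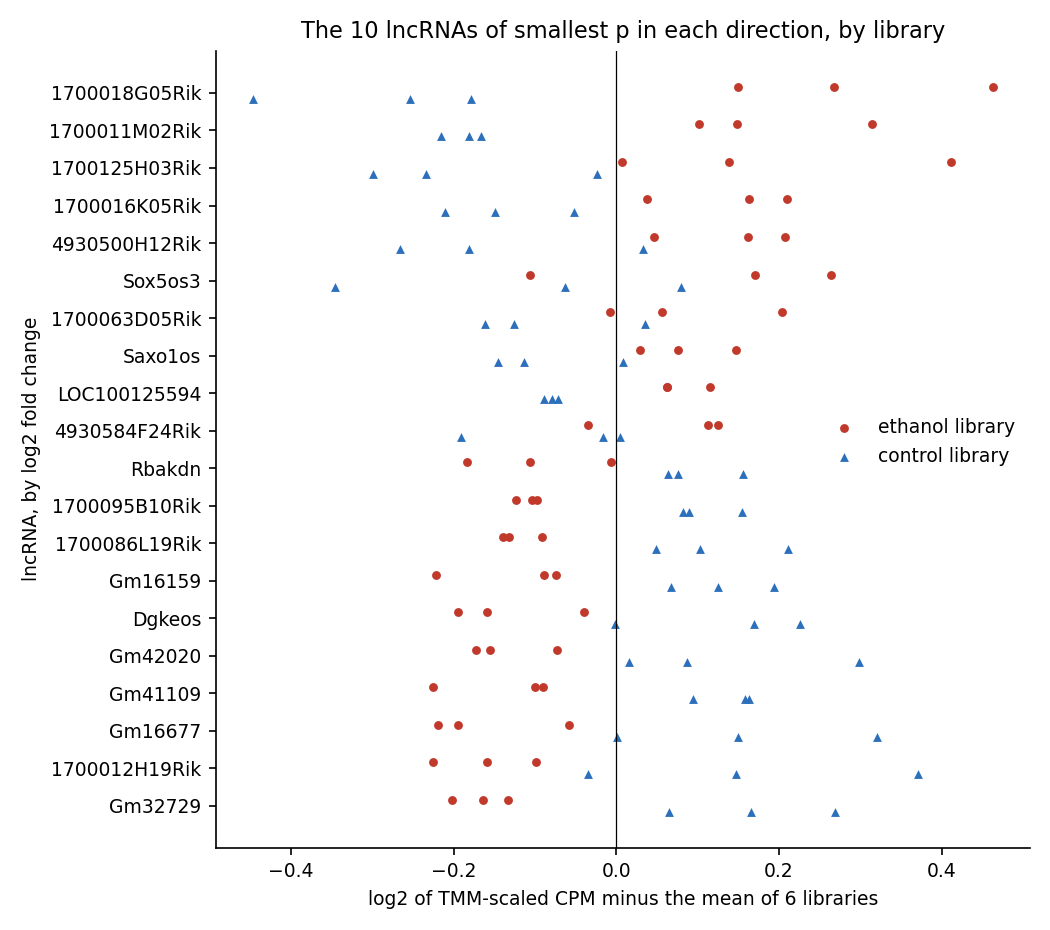
Each library's log2 CPM minus the mean of the 6 libraries for the 10 lncRNAs of smallest p in each direction, ordered by fold change, with ethanol libraries as red circles above control libraries as blue triangles. The symbols separate without overlap in the 10 lower genes and in 7 of the 10 higher ones. This separation follows in part from the choice of the genes by p in the same libraries. Adjusted edgeR p-values of all 20 were at least 0.145.

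Gm10847, antisense to Lrch1, had the lowest log2 fold change of any member, and it rested on part of its ethanol libraries. Its values were 10.2, 8.19 and 16.3 CPM in ethanol libraries, against 14.9, 14.2 and 17.6 CPM in control libraries. Ethanol library 3 lies inside the control range. The log2 fold change was -0.43 ± 0.20 (SE, edgeR adjusted p = 0.388). With single libraries left out, its log2 fold change ran between -0.77 and -0.23. 1700108J01Rik had 34.4, 37.4 and 32.7 CPM in ethanol libraries, against 39.4, 38.3 and 40.8 CPM in control libraries, which is a log2 ratio of -0.18 ± 0.07 (SE, edgeR adjusted p = 0.320). Snhg3, Gas5 and Tug1 had log2 fold changes of -0.06, 0.05 and 0.06, each smaller than its standard error.

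The classes of members had similar medians of the log2 fold change. They were -0.06 over the 38 head-to-head members, -0.06 over the 40 antisense ones and -0.05 over the 118 intergenic ones. At an unadjusted edgeR p under 0.05, 4, 6 and 14 of them were lower and 0, 3 and 3 higher. Lower at that p were 12.0% of all members and 5.89% of all genes tested, and higher 3.0% and 7.45%. The median was -0.05 over the 93 members with a MYB site in a window and -0.06 over the 80 without. It was -0.06 over the upper 100 ranks and -0.05 over the lower 100, and 16 of the 24 lower and 5 of the 6 higher members had ranks over 100. Head-to-head pairs had fold changes of the same sign in 22 of 38, with a correlation of 0.25 across pairs, and antisense pairs in 20 of 40, with 0.06. These are descriptions across genes that share libraries and, for antisense pairs, possibly reads.

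The tissue held the cells its label names: markers of elongating spermatids summed to 11535 to 14353 CPM in ethanol libraries and 11595 to 13931 CPM in control libraries. Of the 4 epididymis markers only 1 was among the genes tested, and it had at most 0.457 CPM. All 6 markers of spermatocytes and all 6 of round spermatids had a log2 fold change below 0, with medians of -0.13 and -0.15. Round spermatid markers summed to between 1149 and 1177 CPM in ethanol libraries and between 1207 and 1330 CPM in control libraries, and spermatocyte markers summed to between 4177 and 4569 CPM in ethanol libraries and between 4351 and 4703 CPM in control libraries. All 9 markers of Sertoli cells were above 0, with a median of 0.23, and summed to between 1096 and 1244 CPM in ethanol libraries and between 940 and 1015 CPM in control libraries. All 4 markers each of macrophages, erythroid cells and adipose tissue were above 0 too, with medians of 0.21, 0.74 and 1.05. Macrophage markers summed to between 87.7 and 94.5 CPM in ethanol libraries and between 73.9 and 79.0 CPM in control libraries, and erythroid ones to between 51.6 and 61.6 CPM in ethanol libraries and between 26.3 and 39.9 CPM in control libraries. Adipose markers summed to between 14.3 and 26.7 CPM in ethanol libraries and between 10.8 and 16.7 CPM in control libraries, with overlap. Of the other lists, 3 of 7 Leydig cell markers, 4 of 4 of peritubular myoid cells, 4 of 6 of spermatogonia and 2 of 6 of elongating spermatids were above 0, with medians of -0.04, 0.08, 0.11 and -0.04. No marker passed an adjusted p of 0.05. Their part in the values of the members was not tested.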

How the data were processed

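Whole-number read counts per gene, not normalized, stood in 1 table beside FPKM and TPM, both computed by the authors, per the file headers. The aligner was HISAT2 and the genome mm10, per the submitters' processing notes. Not given in the sources used here are the version of HISAT2, the annotation, and how and with which strand setting reads were counted. There were 0 sample columns outside these 6 libraries, and total counts ranged from 38935654 to 47420249. Diets were compared with edgeR 4.0.16 (R 4.3.3) by filterByExpr, TMM scaling and the quasi-likelihood F-test with Benjamini-Hochberg adjustment over 25073 genes, with no covariate. The procedure was tested on simulated data. Alternatives were other scalings and filters, DESeq2 1.42.0, limma 3.58.1 on voom weights or on log2 of TPM or FPKM, the replicate number as a block, each library left out, and other choices of members. Named were the 15 most abundant members, the 10 of smallest p and 4 of largest fold change in each direction, the 4 of largest variation, members of fixed lists, neighbours of the limit and partner genes of the members with smallest p. Members and lists were chosen with earlier results of these data known. Outside this rule, 4930558F17Rik, Gm29089, 1700020D14Rik and Pmis2 were named after their values were seen. Sequences came from RefSeq (GRCm38.p6) and GENCODE M21.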

Additional observations from a re-analysis of the deposited data

How the results depend on the processing

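Of the counts over the 200 members, that past an adjusted p of 0.05 was 0 in every alternative run except DESeq2, where it was 3. The number higher at an unadjusted p under 0.05, 6 as reported, was 20 on log2(TPM + 1) and 20 on log2(TPM + 0.1), 1 among the upper 100 ranks, and 4 to 13 with single libraries left out. The number lower, 24 as reported, was 14 and 14 on the TPM scales, 8 among the upper 100, and 13 to 32 with single libraries left out. Members without overlap above control, 7 as reported, were 31 on both TPM scales, 11 on log2(FPKM + 1), 11 with total counts alone, 4 among the 200 lncRNAs of highest mean CPM, 1 among the upper 100, and 9 to 29 with single libraries left out. Those below, 30 as reported, were 13 on both TPM scales, 11 among the upper 100, and 35 to 70 with single libraries left out. The median log2 fold change was 0.0027 on both TPM scales, and -0.09 to -0.01 with single libraries left out. The members' share of TPM, 2.23% over the 6 libraries, was 1.88% for the 200 of highest mean CPM, of which 118 were shared, 1.67% for the upper 100 and 1.93% without the 17 that GENCODE types as protein coding, an alternative chosen after seeing the data. Leaving out the ribosomal RNA overlap list removed 0 members. Choices of fewer members leave fewer to count, and for the other moves the cause was not tested. Shares over all genes tested are given above for the reported run, for the adjusted p of DESeq2 and for log2(TPM + 1). Counts from the other runs, those with a library left out among them, stand without such a share. They are no result about the members.

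From counts to log2(TPM + 1), 35 members turned from a sign below 0 to one above 0. In the other alternatives, signs of single members were followed only for genes named here. Among the 15 most abundant members, signs near 0 turned in some alternative for 6. The log2 fold change of 1700027A15Rik was -0.0021 with RLE factors, -0.0048 with DESeq2, -0.0023 with upper-quartile scaling, and -0.0499 to 0.0287 with single libraries left out. That of Gm15517 was 0.009 on both TPM scales and -0.19 to 0.10 with single libraries left out, and that of BB014433 0.0295 and 0.0294 on log2(TPM + 0.1) and log2(TPM + 1). With single libraries left out, Gm9999 ran from -0.0427 to 0.088, Wbscr25 from -0.11 to 0.10 and 1700031M16Rik from -0.0207 to 0.0637.

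The replicate numbers were not shown to pair the libraries: same-numbered libraries correlated at -0.06, 0.0029 and 0.13 after removal of the group means. With the replicate block, 0 members passed an adjusted p of 0.05, and the median log2 fold change was -0.05. At an unadjusted p under 0.05, 6 were higher and 27 lower. The share over all genes tested is not given for this run, so its counts are no result about the members.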
